A study of Mus musculus with 22 samples.

Results

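TdT single positive cells are the stromal cells of a tumor that carry the TdTomato label of the osterix lineage and lack the leukocyte antigen CD45. They were compared between mice labelled Cdh2-cKO and wild type mice, which left 4 of the 22 libraries of the series, 2 for each genotype. Members were taken from the library titles (Osx+ CD45-) and the genotype label alone. All mice were C57BL/6 at postnatal day 56 and carried Osx-cre with the Ai9 TdTomato reporter, so that the wild type mice had Cre as well, and those labelled Cdh2-cKO had in addition the conditional deletion of *Cdh2*. Tumor cells were given to 6 mice of the Cdh2-cKO;Ai9 genotype and to 4 that were Osx-cre;Ai9, and preparations for sequencing were picked by RNA integrity, at an average RIN of 8.95. The tumors came from a mammary tumor line (MMTV-BO1 in the labels), described as orthotopic by the sample labels and as subcutaneous by the series, and were dissociated and sorted apart from the GFP+ tumor cells. The Cre is a Tet-off transgene under the *Sp7* (osterix) promoter, so any cell that has used this promoter while it was active can carry the label. No treatment differed between the genotypes.

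N-cadherin, the product of *Cdh2*, is a classical cadherin that joins mesenchymal cells through its extracellular repeats, and binds beta-catenin, alpha-catenin and p120-catenin on the inside. Osteoblast lineage cells and fibroblasts use it together with cadherin-11. Cancer-associated fibroblasts deposit collagens, proteoglycans and elastic fiber proteins, hold on to them through integrins, and remodel them with metalloproteases.

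Each library held between 18889687 and 26784003 reads counted on genes, and 3 counts corresponded to 0.103 to 0.153 normalized CPM. Levels are given as normalized CPM, which are counts scaled to the library total after TMM correction, a scaling by the trimmed mean of log ratios. The 2 libraries of a genotype differed from each other by 173 times the counting variance in wild type and by 120 times in Cdh2-cKO (chi-square per degree of freedom), so the spread between libraries, not the counting error, limited each comparison. The labels call the libraries biological replicates. The libraries of each genotype differed in sex-linked transcripts. *Ddx3y*, a Y-linked gene, had 2400 and 3 counts in wild type replicates 1 and 2, and 5 and 1369 counts in replicates 1 and 2 labelled Cdh2-cKO. *Xist*, the RNA of the inactive X chromosome, had 75 and 3129 counts in wild type and 3647 and 1218 in Cdh2-cKO, so that the library with 1369 counts of *Ddx3y* held both kinds of transcript. *Sp7* itself and *Bglap*, the osteocalcin gene, had 0 counts in all 4 libraries, and *Runx2*, an earlier osteogenic factor, lay at 52.4 and 38.6 normalized CPM in wild type and at 24.3 and 42.3 in Cdh2-cKO.

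Wild type replicate 1 stood apart from the other 3 libraries in its leukocyte transcripts. *Ptprc*, which encodes CD45 (chromosome 1, 138063407 to 138175706, GRCm38), gave 2.45 normalized CPM in this library, 81.2 in wild type replicate 2, and 164 and 89.9 in Cdh2-cKO. Its log2 fold change was 1.599 with a standard error of 1.28 (adjusted p = 0.676 by edgeR's quasi-likelihood test). Results that moved with this library are therefore given with and without it.

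*Cdh2* transcripts were not reduced in the libraries labelled Cdh2-cKO. The gene (chromosome 18, 16588877 to 16809246, minus strand, GRCm38) gave 9.14 and 5.19 normalized CPM in wild type replicates 1 and 2, from 179 and 134 counts, and 17.2 and 13.1 in Cdh2-cKO, from 502 and 287 counts. Both libraries labelled Cdh2-cKO thus lay above both wild type libraries, against the direction of the label. The log2 fold change was 1.08 with a standard error of 0.84 (adjusted p = 0.668 by edgeR). In the double negative cells, which lack both TdTomato and CD45, 3 wild type libraries lay between 4.51 and 7.47 normalized CPM and 3 libraries labelled Cdh2-cKO between 12.5 and 18.4, again without overlap (log2 fold change 1.32, adjusted p = 0.625 by edgeR). In CD45+ TdT+ cells the gene stayed at or below 0.713 normalized CPM. The counts are summed over all exons of the gene, and reads from exons outside a deleted part are still counted, so that these values check the level of the gene and not the deletion. The libraries are called by their label in what follows, and each direction drawn between the genotypes rests on that label.

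The other cadherins lay on both sides. Of 10 classical and type II cadherins tested, *Cdh2* included, 3 were higher in both libraries labelled Cdh2-cKO and 2 were lower in both, while 5 overlapped. Over all 15043 genes tested, 21.4% lay apart higher and 20.7% lower, so these counts are near the background. Per length, *Cdh11*, the cadherin of mesenchymal cells, was the most abundant of them, with 77.3 and 44.1 RPKM in wild type and 19.0 and 35.2 in Cdh2-cKO, where *Cdh2* had at most 2.13 RPKM. In normalized CPM, *Cdh11* gave 326 and 186 in wild type against 80.2 and 149 (log2 fold change -1.16, standard error 0.71, adjusted p = 0.583 by edgeR). *Cdh5*, the cadherin of endothelial cells, gave 17.6 and 20.9 in wild type against 8.74 and 5.51. *Cdh1*, which encodes E-cadherin, was at 0.817 and 6.47 in wild type and at 56.0 and 14.3 in Cdh2-cKO. *Cdh15*, a cadherin of muscle, had 0 and 22 counts in wild type and 34 and 97 counts in Cdh2-cKO. *Cdh13*, which lacks a cytoplasmic tail, overlapped, with 93.3 and 190 in wild type and 198 and 61.2 in Cdh2-cKO. *Cdh2* and *Cdh11*, both cadherins of mesenchymal cells, thus lay on opposite sides.

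Among 12 cytoplasmic partners of cadherins, 3 (25%, against 21.4% of all genes) were higher in both libraries labelled Cdh2-cKO. Another 5 (41.7%, against 20.7%) were lower in both. *Ctnna1*, the alpha-catenin that links cadherins to actin, gave 255 and 273 normalized CPM in wild type against 321 and 337 in Cdh2-cKO (log2 fold change 0.32, standard error 0.25, adjusted p = 0.669 by edgeR). *Ctnnb1*, which encodes beta-catenin, overlapped, with 226 and 156 in wild type and 131 and 174 in Cdh2-cKO. *Ctnnd1*, the p120-catenin gene, gave 38.7 and 34.8 against 23.6 and 27.3. *Ajuba*, a LIM protein of adherens junctions, gave 26.5 and 28.5 in wild type and 9.42 and 9.80 in Cdh2-cKO (log2 fold change -1.52, standard error 0.48, adjusted p = 0.325). *Plekha7*, a junction protein of epithelia, was lower in wild type, with 14 and 8 counts against 110 and 61. The differences for the catenins themselves were small beside those of *Cdh11* and *Ajuba*, and none passed the test.

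**Figure D1:**
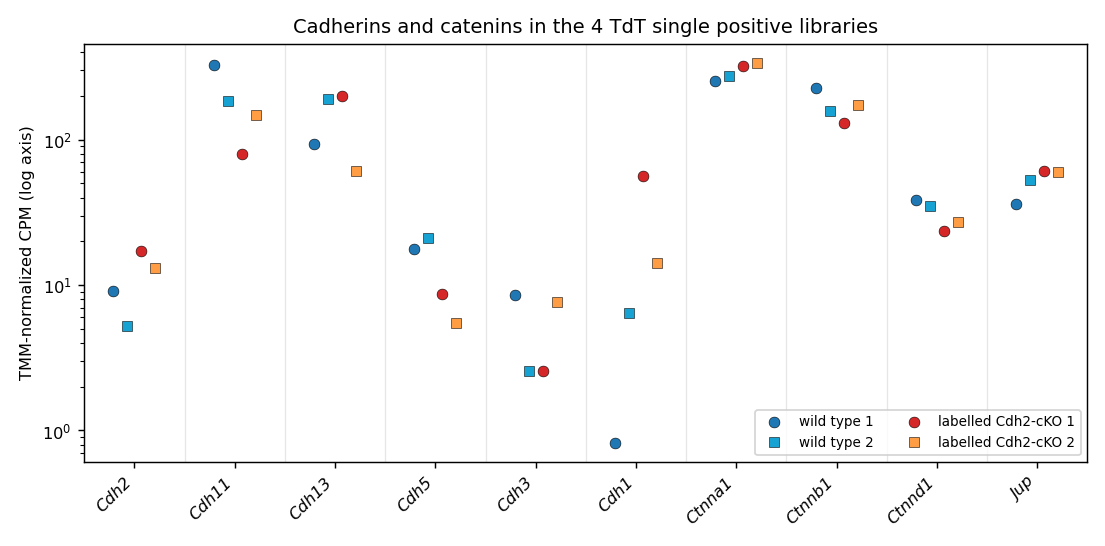
Normalized CPM (log axis) of 6 cadherins and 4 catenins in each TdT single positive library; blue points are wild type and red or orange points are libraries labelled Cdh2-cKO, with 1 point per library. *Cdh2* was higher and *Cdh11* lower in both libraries labelled Cdh2-cKO, while *Cdh13*, *Cdh3* and *Ctnnb1* overlapped.

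Across all 15043 genes tested, the comparison of 2 with 2 libraries called 1 gene higher in Cdh2-cKO (0.00665% of those tested) and 0 lower (0%) at an adjusted p of at most 0.05 by edgeR. At an unadjusted p under 0.05 there were 872 genes higher and 711 lower. With DESeq2 the counts were 109 higher and 28 lower, and with limma's voomWithQualityWeights 0 and 0. The gene called was *Nipal3*, a member of the NIPA family of magnesium transporters (chromosome 4, 135445420 to 135495038, minus strand, GRCm38). It had 1 and 3 counts in wild type and 119 and 39 in Cdh2-cKO, or 0.0511 and 0.116 against 4.08 and 1.78 normalized CPM (log2 fold change 4.98, standard error 0.69, adjusted p = 0.0195). The ratio of summed counts was 35.1, with a 95% exact binomial interval of 13.4 to 130 that covers counting error only. The call was lost without wild type replicate 1 (adjusted p = 0.109) and without replicate 1 labelled Cdh2-cKO (adjusted p = 0.194).

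The matrix, adhesion and leukocyte genes are described by whether both libraries of a genotype lay apart from both of the other. Over all genes tested, 21.4% lay apart higher in Cdh2-cKO and 20.7% lay apart lower, and the smallest two-sided p of an exact permutation test of 2 against 2 libraries is 0.333. No member of the matrix, adhesion or leukocyte lists passed edgeR's test, and "lower" and "higher" below state the position of the libraries.

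Matrix genes had mostly negative log2 fold changes, though fewer than 1 in 2 lay apart lower in the libraries labelled Cdh2-cKO. Of 202 matrix genes listed, 193 were in the files and 166 passed the filter on low counts; 73 of these (44.0%, against 20.7% of all genes) lay apart lower and 11 (6.63%, against 21.4%) lay apart higher, while 82 overlapped. The median log2 fold change was -0.86 over the 166 genes, against -0.003 over all genes, and 141 were below 0. At an unadjusted p under 0.05 there were 19 lower and 4 higher, and none was called. Wild type replicate 1 was the highest of the 4 libraries for 112 of the 166, and replicate 1 labelled Cdh2-cKO was the lowest for 106. Wild type replicate 2 was above replicate 2 labelled Cdh2-cKO for 91 of the 166, with a median difference of -0.13 between these libraries. The median was -0.38 without wild type replicate 1 and -0.54 without replicate 1 labelled Cdh2-cKO. When libraries were scaled on stromal genes alone, a choice made after seeing the data, the median of all genes moved to 0.34 and 57 matrix genes lay apart lower and 16 higher, with a median of -0.49, where 10.3% of all genes lay lower and 39.3% higher.

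Fibrillar collagens are the bulk of the fibroblast matrix. Of 9 tested, 4 (44.4%, against 20.7% of all genes) lay apart lower and 0 (against 21.4%) higher. *Col1a1*, a chain of type I collagen, gave 22384 and 10511 normalized CPM in wild type against 5563 and 9824 in Cdh2-cKO (log2 fold change -1.10, standard error 0.69, adjusted p = 0.592 by edgeR). *Col3a1* gave 14610 and 6486 against 1900 and 5527 (log2 fold change -1.51, standard error 0.75, adjusted p = 0.498). *Col1a2*, the partner chain of *Col1a1*, overlapped, with 16218 and 10541 in wild type and 4598 and 10759 in Cdh2-cKO. The list as a whole had a median of -1.26, or -0.45 without wild type replicate 1, but its 4 pairs of libraries ranged from -2.28 to 0.03, the last for replicates 2 of both genotypes, where 4 members were lower and 5 higher. Of the other collagens, 8 of 15 (53.3%, against 20.7% of all genes) lay apart lower and 1 (6.67%, against 21.4%) higher. *Col6a1* and *Col6a3*, of the microfibrils of collagen VI, overlapped between the genotypes, whereas *Col6a2* gave 1240 and 586 against 255 and 496. *Col28a1* had 86 and 185 counts in wild type and 31 and 3 in Cdh2-cKO (log2 fold change -3.23, standard error 0.96, adjusted p = 0.3).

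The small leucine-rich proteoglycans, which bind collagen fibrils and regulate their assembly, had the largest share apart lower of the 8 matrix lists. Of 11 tested, 8 (72.7%, against 20.7% of all genes) lay apart lower and 0 (against 21.4%) higher. *Dcn*, the decorin gene, gave 3825 and 3103 normalized CPM in wild type and 964 and 1298 in Cdh2-cKO (log2 fold change -1.61, standard error 0.70, adjusted p = 0.441 by edgeR). *Lum*, which encodes lumican, gave 1602 and 897 against 375 and 557, while *Bgn*, the biglycan gene, overlapped. *Ogn*, *Prelp*, *Fmod* and *Podn* of the same family, named after their values were seen, also lay apart lower. The median of the list was -1.29, and here it kept its direction in each of the 4 pairs of libraries, from -1.73 to -0.83. It was -1.11 without wild type replicate 1 and -0.94 with the stromal scaling.

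Elastic fiber genes followed, with 10 of 18 (55.6%, against 20.7% of all genes) apart lower and 0 (against 21.4%) higher. *Mfap4* gave 424 and 319 normalized CPM in wild type against 142 and 112 in Cdh2-cKO (log2 fold change -1.55, standard error 0.66, adjusted p = 0.440 by edgeR), and *Efemp1*, a fibulin, gave 270 and 401 against 103 and 158. *Mfap2* gave 982 and 577 against 205 and 423. *Fbln2* overlapped, with 2875 and 1599 against 2097 and 1727, and its sign turned to 0.26 without wild type replicate 1. The medians of the 4 pairs of libraries for this list lay between -1.48 and -0.43, and the list's median of -0.97 was -0.58 without wild type replicate 1.

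In the basement membrane list, 14 of 26 (53.85%, against 20.7% of all genes) lay apart lower and 5 (19.2%, against 21.4%) higher. The type IV collagen chains *Col4a1* (789 and 607 normalized CPM in wild type, 147 and 359 in Cdh2-cKO) and *Col4a2* were among those lower, and so were *Nid1* (976 and 653 against 308 and 516) and the mesenchymal laminin chains *Lama2* and *Lama4*. Among the 5 higher members were *Lama5* and *Lamb3*, named after their values were seen. *Lama5*, a laminin chain of many epithelia, gave 4.09 and 19.4 in wild type against 28.1 and 25.2 in Cdh2-cKO. *Lamb3*, a chain of the laminin of epithelia, had 0 and 16 counts against 88 and 70. The share apart higher was near that of all genes, so these members are examples, and the median of the list was -0.58. *Sparc*, which had more RPKM than any other gene of the list, overlapped, with 31315 and 15152 normalized CPM in wild type and 8424 and 16044 in Cdh2-cKO.

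Of the matricellular proteins, 9 of 25 (36%, against 20.7% of all genes) lay apart lower and 0 (against 21.4%) higher. *Postn*, the periostin gene of activated fibroblasts, gave 7216 and 3298 normalized CPM in wild type against 1920 and 2700 in Cdh2-cKO (log2 fold change -1.19, standard error 0.72, adjusted p = 0.580 by edgeR). *Sparcl1* gave 914 and 563 against 128 and 214 (log2 fold change -2.11, standard error 0.87, adjusted p = 0.432). *Spp1*, which encodes osteopontin and is made by macrophages as well as stroma, overlapped at 11619 and 6643 in wild type and 12145 and 8276 in Cdh2-cKO. Collagen processing and cross-linking genes separated less, with 7 of 25 (28%, against 20.7%) lower and 1 (4%, against 21.4%) higher. *Lox*, the cross-linking enzyme, gave 632 and 238 against 111 and 189, whereas the collagen chaperone *Serpinh1* overlapped at 7834 and 3176 against 2422 and 5401. In replicates 2 of both genotypes, 16 of the 25 were higher in the library labelled Cdh2-cKO. Without wild type replicate 1 the median moved from -0.65 to -0.32 for the matricellular list and from -0.72 to -0.23 for the processing list.

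The proteases held members at both ends. *Mmp3*, stromelysin-1 of fibroblasts, gave 2813 and 796 normalized CPM in wild type and 359 and 358 in Cdh2-cKO (log2 fold change -2.33, standard error 0.80, adjusted p = 0.355 by edgeR). *Mmp2*, a gelatinase of stroma, gave 1071 and 631 against 308 and 312. *Adamts9* gave 19.7 and 10.2 against 3.19 and 3.14. In the other direction, *Mmp12*, the elastase of macrophages, gave 9.96 and 68.1 in wild type and 649 and 141 in Cdh2-cKO (log2 fold change 3.34, standard error 1.32, adjusted p = 0.415), and *Mmp8*, *Plau* and *Plaur* were the other 3 that lay higher. In all, 13 of 37 (35.1%, against 20.7% of all genes) lay apart lower and 4 (10.8%, against 21.4%) higher. The median was -0.67, or -0.18 without wild type replicate 1. *Mmp8* and *Mmp12* are made by leukocytes. The summed macrophage markers were 307 and 8464 normalized CPM in wild type and 18326 and 7563 in Cdh2-cKO. The dendritic cell list summed to 302 and 2176 against 8552 and 9489, most of it from *Cd74*, *H2-Aa*, *H2-Ab1* and *H2-Eb1*. These antigen presentation genes are not particular to dendritic cells. The part of leukocytes in the result was not tested.

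**Figure D2:**
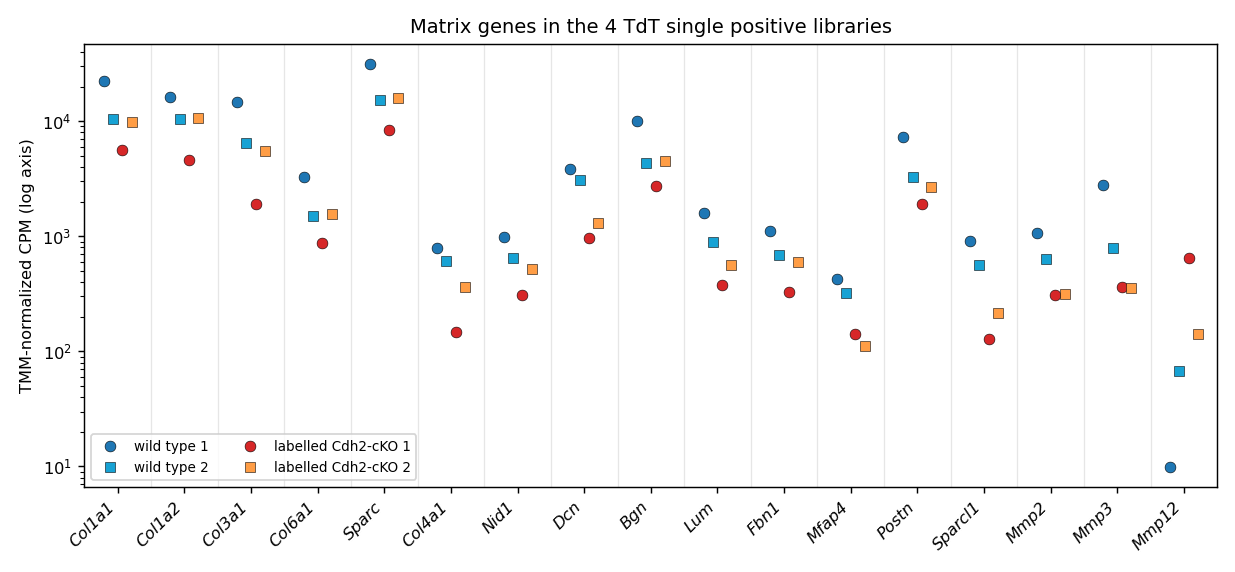
Normalized CPM (log axis) of 17 matrix genes in each TdT single positive library, 1 point per library, wild type in blue and labelled Cdh2-cKO in red and orange. Wild type replicate 1 was the highest library for each gene shown other than *Mmp12*, which had the opposite order. Genes with both libraries labelled Cdh2-cKO below both wild type libraries included *Dcn*, *Mfap4*, *Sparcl1*, *Mmp2*, *Mmp3*, *Col1a1*, *Col3a1*, *Col4a1*, *Nid1*, *Lum* and *Postn*. *Col1a2*, *Col6a1*, *Sparc* and *Bgn* overlapped.

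Adhesion genes, the cadherin lists included, lay on both sides. Of 158 listed, 152 were in the files and 119 were tested; 41 (34.5%, against 20.7% of all genes) lay apart lower and 24 (20.2%, against 21.4%) higher, with a median log2 fold change of -0.33. When scaled on stromal genes, 26 lay lower and 33 higher, with a median of 0.02 where that of all genes was 0.34. Among 18 integrins, 4 lay apart lower and 5 higher, shares near those over all genes, and the members named here are examples. *Itga11*, the alpha chain of a fibroblast collagen receptor, gave 16.3 and 16.4 normalized CPM in wild type and 3.19 and 2.14 in Cdh2-cKO (log2 fold change -2.62, standard error 0.77, adjusted p = 0.297 by edgeR and 0.00649 by DESeq2). *Itga1* (90.9 and 78.2 against 30.5 and 36.3) and *Itga10* encode further collagen-binding chains, and *Itgb1*, their common beta chain, gave 758 and 555 against 427 and 543. The 5 integrins that lay higher were *Itga2*, *Itga3*, *Itga6*, *Itgb4* and *Itgb8*, named after their values were seen. *Itga2* also encodes a collagen-binding chain, so the collagen-binding chains lay on both sides. *Itga6* and *Itgb4* encode the laminin receptor of epithelial hemidesmosomes, and *Itgb4* gave 2.15 and 36.4 in wild type against 57.5 and 47.9 in Cdh2-cKO. *Itga5*, of the fibronectin receptor, overlapped, and its value was 0 without wild type replicate 2.

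Gap junction and immunoglobulin-type genes lay on both sides. *Gjc1*, a connexin gene, gave 74.9 and 72.1 normalized CPM in wild type and 21.3 and 28.2 in Cdh2-cKO (log2 fold change -1.57, standard error 0.67, adjusted p = 0.439 by edgeR), and *Gja4*, a connexin gene of vessels, gave 130 and 47.4 against 10.4 and 22.7. *Gja1*, the main connexin gene of mesenchymal cells, was the most abundant per length and overlapped. Of 8 gap junction genes, 3 (37.5%, against 20.7% of all genes) lay apart lower and 2 (25%, against 21.4%) higher. Of 34 immunoglobulin-type and other adhesion molecules, 14 (41.2%) lay apart lower and 6 (17.65%) higher. *Nectin4*, a nectin of epithelia and carcinomas, had 0 counts in both wild type libraries and 257 and 20 in Cdh2-cKO, most of them in 1 library (adjusted p = 0.195 by edgeR and 0.00206 by DESeq2). *Bcam* had 18 and 103 counts against 10 and 5. Focal adhesion adaptors differed little, with 6 of 18 (33.3%) lower and 3 (16.7%) higher. Their median was -0.15, or 0.18 with the stromal scaling, where all genes had 0.34. *Actn4* gave 263 and 242 against 288 and 269, and *Tns1* gave 123 and 91.4 against 48.2 and 64.2. Of the protocadherins and atypical cadherins, 7 of 19 (36.8%) lay apart lower and 2 (10.5%) higher. *Dchs1* gave 28.96 and 14.02 against 6.75 and 7.75.

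Markers of epithelium and of the tumor cells were measured in the same libraries. Of 11 such markers tested, 6 (54.5%, against 21.4% of all genes) lay apart higher in Cdh2-cKO and 1 (9.09%, against 20.7%) lower. Their summed level was 41.7 and 579 normalized CPM in wild type and 944 and 937 in Cdh2-cKO, so that wild type replicate 1 was again apart. Most of each sum came from *Krt8* and *Krt18*. *Krt7* was the member apart lower, and *Krt19* and *Erbb3* overlapped. *Krt18* gave 17.8 and 432 against 666 and 693. *Epcam*, the epithelial adhesion marker, had 0 normalized CPM in both wild type libraries and 0.411 and 0.0456 in Cdh2-cKO. These values came from 12 and 1 counts, of which 1 is below the floor of 3. *Krt5* was at 0.0387 or below in all 4. The double negative cells had 512 to 1417 in wild type and 1084 to 2004 in Cdh2-cKO for the same sum. Whether epithelial or tumor cells were present, and their part in the adhesion values, was not tested.

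**Figure D3:**
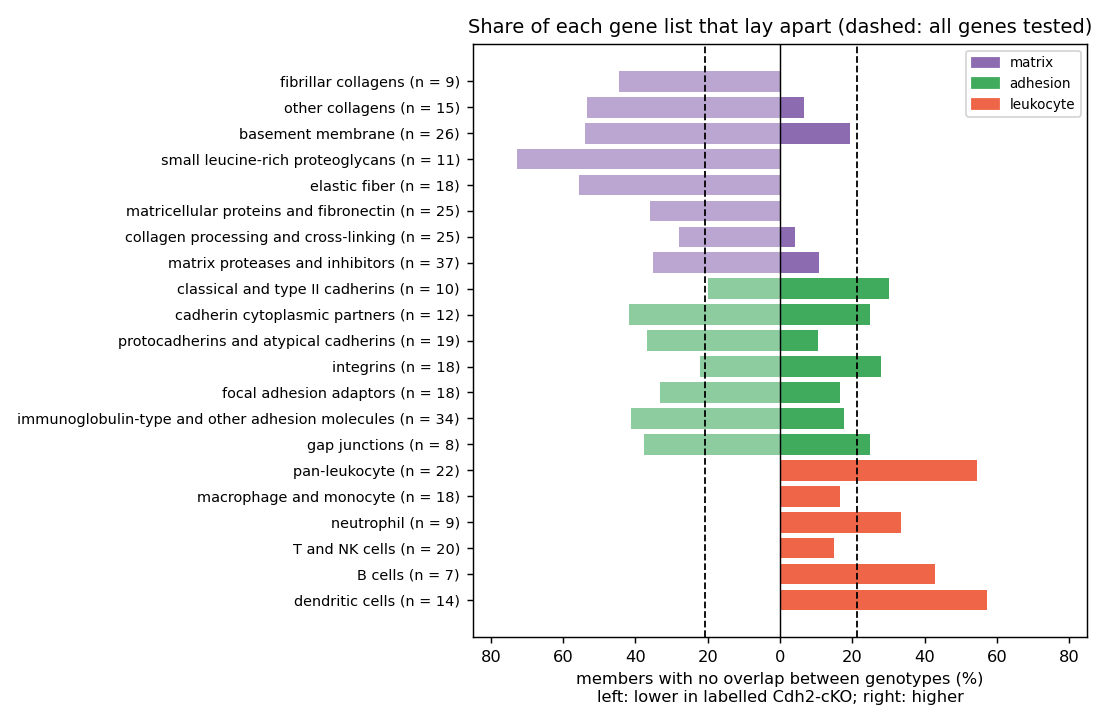
Share of the tested members of each list, in percent, whose 2 libraries labelled Cdh2-cKO both lay below (left) or both above (right) the 2 wild type libraries; dashed lines mark 20.7% and 21.4%, the shares over all genes tested. The 8 matrix lists extend past the left line, small leucine-rich proteoglycans furthest, and the leukocyte lists extend to the right alone. The macrophage and monocyte list (16.7%) and the T and NK cell list (15%) stay short of the right line.

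Leukocyte transcripts, which a CD45- gate is meant to leave out, were higher in the libraries labelled Cdh2-cKO, in a manner that depended on wild type replicate 1. Of 95 leukocyte genes listed, 94 were in the files and 90 were tested. Of the 90, 32 (35.6%, against 21.4% of all genes) lay apart higher and 0 (against 20.7%) lower. The log2 fold change was above 0 in 84, with a median of 1.46 over the 90. At an unadjusted p under 0.05 there were 10 higher and 0 lower, while edgeR, voomWithQualityWeights and DESeq2 each called 0 of the 90. Wild type replicate 1 was the lowest library for 74 of the 90 and replicate 1 labelled Cdh2-cKO the highest for 64. Without wild type replicate 1 the median was 0.67, and without wild type replicate 2 it was 4.74. Wild type replicate 2 exceeded replicate 2 labelled Cdh2-cKO for 49 of the 90, so that the direction was not shared by all pairs. In these pooled cells, a higher number of leukocytes and more RNA per leukocyte cannot be told apart.

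The 22 pan-leukocyte markers summed to 734 and 3752 normalized CPM in wild type and to 8208 and 3925 in Cdh2-cKO, against 22119 to 25507 in the 6 double positive libraries. All 22 were higher in each library labelled Cdh2-cKO than in wild type replicate 1, and 12 (54.5%, against 21.4% of all genes) lay apart. *Itgb2*, the beta-2 integrin of leukocytes, gave 2.30 and 126 against 409 and 155 (log2 fold change 2.13, standard error 1.29, adjusted p = 0.580 by edgeR). *Lcp1*, a leukocyte plastin, gave 12.6 and 307 against 998 and 371. *Fcer1g* overlapped. Macrophage and monocyte markers summed to 307 and 8464 in wild type and 18326 and 7563 in Cdh2-cKO. Only 3 of 18 (16.7%, against 21.4% of all genes), *C1qb*, *Ccr2* and *Csf1r*, lay apart higher. *Lyz2*, lysozyme of myeloid cells, overlapped at 71.5 and 3860 against 7218 and 3276. In replicates 2 of both genotypes, 15 of these 18 markers were lower in the library labelled Cdh2-cKO.

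Genes of antigen presentation and dendritic cells lay higher in each of the 4 pairs of libraries by their median. Of 14 tested, 8 (57.1%, against 21.4% of all genes) lay apart higher and 0 (against 20.7%) lower. The median log2 fold change was 2.88, or 2.08 without wild type replicate 1. The list summed to 302 and 2176 normalized CPM in wild type and 8552 and 9489 in Cdh2-cKO. Most of each sum came from *Cd74*, *H2-Aa*, *H2-Ab1* and *H2-Eb1*, genes of antigen presentation that are not particular to dendritic cells. *Cd74*, the invariant chain of MHC class II, gave 208 and 1676 against 6712 and 7160 (log2 fold change 2.88, standard error 1.39, adjusted p = 0.483 by edgeR). *H2-Aa*, an MHC class II chain, gave 27.3 and 205 against 774 and 945. *Itgax*, which encodes CD11c, gave 0.204 and 8.83 against 44.4 and 39.2, and *Ccr7*, the receptor of migrating dendritic cells, gave 0.409 and 1.63 against 8.77 and 19.3. *Zbtb46*, the factor of conventional dendritic cells, overlapped at 4.90 and 5.15 against 2.40 and 7.15. *Flt3*, *Batf3* and *Xcr1* overlapped as well, and *Clec9a* and *Siglech* were at 0.583 normalized CPM or below in all 4. The medians of the list over the 4 pairs of libraries were 1.28 to 3.33, whereas those of the macrophage list were -0.37 to 5.94.

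The lymphoid and neutrophil lists were at low levels. T and NK cell markers summed to 12.7 and 58.4 normalized CPM in wild type and 65.4 and 38.8 in Cdh2-cKO. Of 20 tested, 3 (15%, against 21.4% of all genes) lay apart higher. *Trac*, the T cell receptor alpha constant gene, overlapped at 3.63 and 7.83 against 6.96 and 7.38, and its sign turned to -0.13 without wild type replicate 1. *Lck*, a kinase of T cells, gave 3.32 and 1.82 against 5.59 and 5.29. Of 9 neutrophil markers 3 (33.3%, against 21.4% of all genes) lay apart higher, with sums of 26.6 and 89.6 against 113 and 117. *S100a8* overlapped at 0 and 119 counts in wild type and 249 and 22 counts in Cdh2-cKO. Of 7 B cell markers, 3 (42.9%, against 21.4% of all genes) lay apart higher, among them *Cd79b* with 15 and 13 counts against 151 and 20. The B cell list summed to at most 17.3 normalized CPM in any of the 4 libraries.

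**Figure D4:**
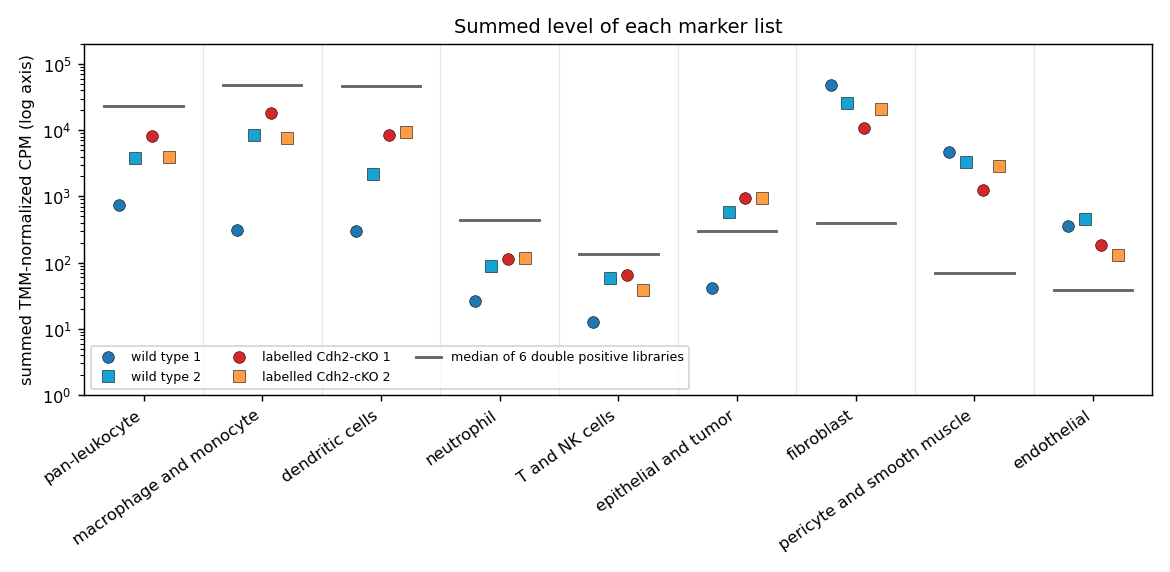
Summed normalized CPM (log axis) of 9 marker lists in each TdT single positive library, 1 point per library, with a grey bar for the median of the 6 double positive libraries. Wild type replicate 1 had 734 for the pan-leukocyte list and 302 for the dendritic cell list, below the other libraries, and endothelial sums were lower in both libraries labelled Cdh2-cKO.

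Markers of stromal and vascular cell types lay lower in the libraries labelled Cdh2-cKO. Of 17 fibroblast markers, 11 (64.7%, against 20.7% of all genes) lay apart lower and 0 (against 21.4%) higher. Their summed levels were 47590 and 25983 normalized CPM in wild type and 10886 and 20820 in Cdh2-cKO. Most of each sum came from *Col1a1*, *Col3a1*, *Dcn* and *Lum*, which are also in the matrix lists, so both results share members. *Pdgfra*, the receptor of fibroblasts, gave 313 and 184 against 109 and 106, *Dpt* gave 432 and 403 against 90.7 and 181, and *Cd34* gave 162 and 487 against 94.96 and 138. *Fap*, *Thy1*, *Pdgfrb* and *Acta2*, genes of activated fibroblasts, overlapped, and so did *S100a4* and *Pi16* (107 and 664 against 180 and 163). *Twist1*, *Prrx1*, *Col1a1* and *Col3a1* of the same list lay apart lower, as did *Postn* of the matricellular list, also a gene of activated fibroblasts. These examples were chosen after their values were seen.

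Endothelial markers had the largest share apart of all 37 lists, with 13 of 16 (81.25%, against 20.7% of all genes) lower and 0 (against 21.4%) higher. They summed to 352 and 451 normalized CPM in wild type and to 185 and 131 in Cdh2-cKO. *Plvap*, of fenestrated endothelium, gave 27.99 and 22.3 against 4.35 and 3.96 (log2 fold change -2.59, standard error 1.09, adjusted p = 0.439 by edgeR), *Esam* gave 99.2 and 91.0 against 34.5 and 22.1, and *Pecam1* overlapped. The median log2 fold change was -1.33, and -1.71 without wild type replicate 1. Pericyte and smooth muscle markers lay apart lower in 8 of 12 (66.7%, against 20.7%) and higher in 0 (against 21.4%). The markers of capillary pericytes were among them: *Rgs5* gave 1084 and 894 against 143 and 226 (log2 fold change -2.42, standard error 0.74, adjusted p = 0.305), *Kcnj8* gave 135 and 84.8 against 20.3 and 33.3, and *Abcc9* gave 100 and 78.0 against 14.9 and 18.9. The contractile genes *Acta2*, *Tagln* and *Cnn1* overlapped, and so did the pericyte marker *Cspg4*. *Myh11* (34.2 and 36.3 against 13.1 and 15.9) and *Des*, of contractile cells as well, lay apart lower. In the double negative cells the medians of the endothelial and pericyte lists were 0.01 and -0.14, and -0.44 and -0.5 without wild type replicate 3 of those cells.

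**Figure D5:**
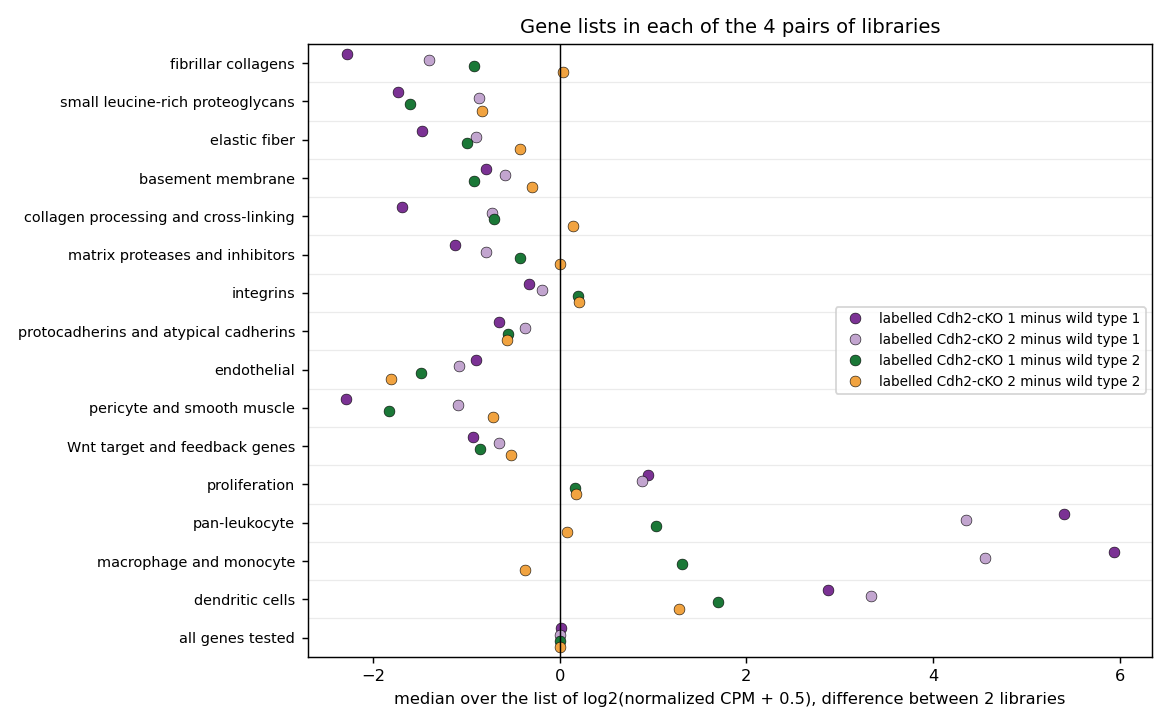
Median over each list of the difference in log2(normalized CPM + 0.5) for each of the 4 pairs of a library labelled Cdh2-cKO with a wild type library. Fibrillar collagens and macrophage markers reached 0.03 and -0.37 in the pair of replicates 2 and were far from 0 in pairs with wild type replicate 1. The proteoglycan, elastic fiber, basement membrane, protocadherin, endothelial, pericyte, Wnt, proliferation, pan-leukocyte and dendritic cell lists kept 1 direction in all 4 pairs. For the pan-leukocyte list the median was 0.08 in the pair of replicates 2.

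The genes with the largest difference among those apart, with at least 10 normalized CPM in both libraries of the higher genotype, are given as values because none passed the test by edgeR. Those higher in Cdh2-cKO included 3 chemokine genes. *Mgl2*, a lectin of dendritic cells and alternatively activated macrophages, gave 3.58 and 15.5 normalized CPM in wild type and 205 and 143 in Cdh2-cKO. *Ccl24* gave 2.25 and 3.22 against 44.5 and 88.0, *Ccl17* gave 0.102 and 3.68 against 24.2 and 16.6, and *Ccl22* gave 0.102 and 3.95 against 18.3 and 27.3. *H2-DMb2*, *Il1a* and *Sema4a*, genes of antigen-presenting and other immune cells, belonged here as well, at 0.255 to 6.20 in wild type and at 13.9 to 39.9 in Cdh2-cKO. *Mcpt1*, a mast cell protease gene, gave 0.766 and 0.891 against 13.5 and 55.6 (adjusted p = 0.275 by edgeR and 0.0147 by DESeq2). *Nefl*, neurofilament light chain, gave 1.53 and 9.14 against 55.5 and 66.4 (log2 fold change 3.50, standard error 0.79, adjusted p = 0.182).

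Those lower in Cdh2-cKO included 2 chemokine genes as well. *Cxcl12*, the stromal ligand of CXCR4, gave 377 and 75.6 normalized CPM in wild type against 25.6 and 29.4 in Cdh2-cKO (log2 fold change -3.04, standard error 0.99, adjusted p = 0.330 by edgeR). *Cxcl5* gave 255 and 26.2 against 8.57 and 20.1. *Saa3*, an acute-phase protein of stroma and macrophages, gave 250 and 69.1 against 7.81 and 18.3, and *Enpp2*, which encodes autotaxin, gave 41.01 and 14.6 against 1.75 and 4.83. *Gdf10* gave 12.6 and 12.9 against 0.0343 and 3.01, and *Xpnpep2* gave 15.9 and 12.8 against 1.47 and 1.37. *Reg1*, *Cyp1b1*, *Iigp1* and *Olfr558* had wild type levels of 13.1 to 282 and Cdh2-cKO levels of 0.446 to 22.7. In *Cxcl12*, *Cxcl5* and *Iigp1*, the ratio of wild type replicate 1 to wild type replicate 2 was larger than that of wild type replicate 2 to either library labelled Cdh2-cKO.

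The genotype difference was set against that of the double negative cells, the other CD45- population. The difference between both effects was tested for all 15043 genes, and 1 passed (0.00665%), again *Nipal3*, with an interaction of 5.81 on the log2 scale (standard error 0.81, adjusted p = 0.0227 by edgeR). This test treats libraries of both populations as independent, although equal numbers within a genotype may mark the same mouse. With that number as a block, 0 genes were called, with 895 higher and 89 lower at an unadjusted p under 0.05, and *Nipal3* had a difference of 5.87 (adjusted p = 0.267). Its double negative libraries lay at 1.38 to 2.81 normalized CPM in wild type and 0.946 to 1.55 in Cdh2-cKO, so that the 2 wild type libraries of TdT single positive cells, at 0.116 or below, were the low ones. *Nlrp10*, a member of the NLR family, followed at 8.56 (adjusted p = 0.0503) and *Slc9a4*, a sodium and proton exchanger gene, at 7.92 (adjusted p = 0.0564). At an unadjusted p under 0.05 there were 1345 genes with a positive and 168 with a negative difference. Leukocyte genes had opposite signs in the 2 populations, with a median of 1.46 in TdT single positive and -2.65 in double negative cells, of which the latter was -0.69 without wild type replicate 3 of the double negative cells. That library had 13102 normalized CPM of pan-leukocyte markers, and the double negative libraries labelled Cdh2-cKO had 698 to 935. Matrix genes had a median of -0.86 in TdT single positive cells and 0 in double negative cells, the latter -0.36 without that library, and no matrix, adhesion or leukocyte gene passed the test of the difference.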

How the data were processed

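For each library the authors aligned single-end reads with STAR 2.0.4b to GRCm38 (Ensembl annotation) and counted unique, unambiguous reads per gene with featureCounts. The deposited count values are whole numbers for 41388 genes. The deposited CPM and RPKM values, which the authors computed from the counts, were read to check the counts and to compare levels between genes per length. In the cDNA kit strand is not marked, so antisense and overlapping genes, and near-identical families such as MHC class II or chemokine genes, may share reads. Libraries were grouped by title and genotype label.

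After removal of 355 rRNA genes, a gene was kept where 2 or more of the 22 libraries exceeded 1 CPM, which left 15043. In R 4.3.3, edgeR 4.0.16 with TMM factors fitted 1 mean for each of the 8 groups of population and genotype over all 22 libraries, and the quasi-likelihood test was used with Benjamini-Hochberg adjustment at 0.05. Standard errors were derived from that test. The study used limma's voomWithQualityWeights (limma 3.58.1), which was run as an alternative, as was DESeq2 1.42.0; with DESeq2, 102 genes had no adjusted p. The procedure was tested on simulated data. Normalized CPM are counts over the TMM-scaled library size; in pairs of libraries 0.5 was added before log2. Intervals and floors (3 counts) cover counting error only.

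Members and the 37 gene lists were chosen with earlier results of these data known. Genes named are *Cdh2*, *Ptprc* and *Sp7*; called genes, filled to 10 in each direction with the largest fold changes among genes that lay apart with at least 10 normalized CPM in both libraries of the higher genotype; from each matrix, adhesion and leukocyte list the 2 of highest RPKM and up to 2 that lay apart with a mean of at least 1 normalized CPM; and the 3 of smallest adjusted p for the difference from double negative cells. All other list members named in the text were chosen after their values were seen. Equal replicate numbers do not mark shared animals across genotypes. Same-numbered TdT single positive libraries deviated in opposite directions (correlation across genes -0.37). With 2 libraries a genotype, this cannot show whether the numbers mark a shared batch. The alternatives were voomWithQualityWeights, DESeq2, RLE factors, TMM without leukocyte genes, no filter, fewer libraries in the fit, a replicate block and leaving out each library; TMM from stromal genes, a crossed block, the number within a genotype as a block and leaving out wild type replicate 3 of the double negative cells were chosen after seeing the data. Values of some list members are not reported here.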

Additional observations from a re-analysis of the deposited data

Results flagged for a closer look

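*Nipal3* was the 1 gene whose difference between Cdh2-cKO and wild type was not the same in both CD45- populations by edgeR's test of the difference, with 5.81 on the log2 scale. The call was lost when the replicate number within a genotype was a block (5.87, adjusted p = 0.267 by edgeR). In TdT single positive cells it was higher in both libraries labelled Cdh2-cKO (4.08 and 1.78 normalized CPM against 0.0511 and 0.116), while the log2 fold change among double negative cells was -0.82. The wild type values rest on 1 and 3 counts. In CD45+ cells of the 4 groups, the gene lay between 3.41 and 12.03 normalized CPM.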

How the results depend on the processing

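Of the genes tested, edgeR called 1 higher and 0 lower between the genotypes with RLE factors, TMM factors without leukocyte genes, no filter on low counts or TMM factors from stromal genes. With voomWithQualityWeights, with the 10 CD45- libraries alone and with the 4 TdT single positive libraries alone the calls were 0 higher and 0 lower, and with DESeq2 109 higher and 28 lower. Leaving out 1 library at a time gave 0 to 86 higher and 0 to 3 lower, with 86 and 3 without wild type replicate 2, 3 and 1 without Cdh2-cKO replicate 2, and 0 without replicate 1 of either genotype. For the difference from double negative cells, where 1 gene was called higher, the calls were 0 with voomWithQualityWeights and with the 10 CD45- libraries, 551 higher and 9 lower with DESeq2, 2 with RLE factors, 101 with no filter, 0 with the number within a genotype as a block and 7 without wild type replicate 3 of the double negative cells. Leaving out 1 library of TdT single positive cells gave 0 to 479 higher and 0 to 2 lower, the highest without wild type replicate 2. With TMM factors from stromal genes 5915 genes lay apart higher and 1546 lower. The cause of these shifts was not tested.

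The log2 fold change of *Cdh2* stayed between 0.73 and 1.54 when 1 library was left out. With the stromal factors, which moved the median of all genes from -0.003 to 0.34, values slightly below 0 turned positive by that common shift, namely *Fbln2* (0.17), *P4hb* (0.14), *Cdh13* (0.23), *Ctnnb1* (0.03), *Clstn1* (0.14) and *Actn1* (0.3). Leaving out 1 library turned the sign of 12 of the 106 genes named by rule, with ranges of -0.59 to 0.26 for *Fbln2*, -0.19 to 0.62 for *Spp1*, -1.18 to 0.3 for *Serpinh1*, -0.46 to 0.05 for *P4hb*, -1.21 to 0.49 for *Cdh13*, 0 to 0.54 for *Itga5*, -0.21 to 0.11 for *Actn1*, -0.02 to 0.51 for *Gja1*, -1.22 to 9.53 for *S100a8*, -0.13 to 0.98 for *Trac*, -0.27 to 2.25 for *Trbc2* and -0.23 to 1.20 for *Ighm*. DESeq2 called 8 further named genes, and without wild type replicate 2 or Cdh2-cKO replicate 2 edgeR called 1 further named gene each.

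With the replicate number as a block, the numbers of calls were 1 higher and 0 lower, the log2 fold change of *Cdh2* was 1.07 and that of *Cdh13* turned to 0.13. Across genotypes, deviations of same-numbered TdT single positive libraries had a correlation of -0.37 across 15043 genes. With 2 libraries a genotype, this sets 1 difference against 1 other, so it cannot show whether the numbers mark a shared batch. Within a genotype, *Ddx3y* exceeded 100 counts in 4 of 4 populations for wild type number 1 and in 3 of 4 for Cdh2-cKO number 2, but also in 1 of 4 for wild type number 2, a hint from the data that some libraries of different populations may share a mouse. With the number within a genotype as a block, the 1 call for the difference from double negative cells was lost (0 calls, smallest adjusted p = 0.267 by edgeR). With the pairing crossed, 1 gene was called higher and 0 lower.

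With 2 libraries a side, differences within the spread between libraries were not detectable, and genes with few counts, such as *Nipal3* in wild type, rest on counts near the floor of 3. Leukocyte transcripts differed between the libraries, with similar pan-leukocyte sums in replicates 2 of both genotypes (3752 and 3925 normalized CPM), and their part in the results was not tested.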

Other observations

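Genes of Wnt signalling and its feedback were mostly lower in the libraries labelled Cdh2-cKO. Of 19 tested, 12 (63.2%, against 20.7% of all genes) lay apart lower and 1, *Ccnd1* (5.26%, against 21.4%), higher. The median log2 fold change was -0.98, or -0.75 without wild type replicate 1 and -0.60 with the stromal scaling. None passed the test by edgeR, and 6 had an unadjusted p under 0.05. *Sfrp1*, a secreted Wnt antagonist, gave 246 and 79.9 normalized CPM in wild type and 25.9 and 27.5 in Cdh2-cKO, *Sfrp2* gave 210 and 129 against 47.4 and 41.9, and *Nkd2* gave 120 and 90.5 against 34.8 and 27.0. *Axin2*, a common target of beta-catenin, was low at 11.6 and 6.32 against 3.29 and 4.51, and *Lef1* overlapped. The targets *Tcf7*, *Znrf3* and *Rnf43* and the antagonist *Dkk2* overlapped too. The medians over the 4 pairs of libraries were -0.93 to -0.52.

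Proliferation genes lay apart higher in 10 of 19 (52.6%, against 21.4% of all genes) and lower in 0. Their median of 0.48 was 0.12 without wild type replicate 1. *Mcm3*, of the replicative helicase, gave 34.3 and 44.2 normalized CPM against 113 and 75.3, and *Bub1*, of the mitotic checkpoint, gave 7.05 and 11.97 against 24.5 and 25.2, while *Mki67* overlapped at 41.3 and 58.9 against 57.9 and 41.9. Stromal chemokines and cytokines divided. *Ccl19*, *Cxcl13*, *Cxcl14*, *Cxcl1* and *Il6* were among 8 of 20 apart lower (40%, against 20.7% of all genes). *Il6* gave 90.04 and 28.6 against 8.16 and 13.5. The 3 apart higher (15%, against 21.4%) were *Cxcl2*, *Cxcl16* and *Csf1*, of which *Cxcl16* gave 15.8 and 50.4 against 155 and 76.1.

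Other lists showed less. Early response genes lay apart lower in 6 of 19 (31.6%, against 20.7% of all genes) and higher in 1 (5.26%, against 21.4%). Interferon-stimulated genes did so in 3 (16.7%) and 2 (11.1%) of 18, below the shares of all genes. The 8 mitochondrially encoded genes overlapped, with sums of 9300 and 23865 normalized CPM in wild type and 12617 and 14363 in Cdh2-cKO. Erythroid genes (0 of 5 apart) summed to 1.28 and 111 against 26.8 and 15.3. Skeletal muscle markers lay apart higher in 2 of 7 (28.6%) and lower in 1 (14.3%), and *Acta1* gave 16.7 and 3.02 against 18.8 and 102. Of 8 osteolineage markers 2 (25%), *Dmp1* and *Phex*, lay higher and *Col1a1* (12.5%) lower. Adipocyte (2 of 4, 50%) and Schwann cell markers (2 of 6, 33.3%) had members lower and 0 higher. Sex-linked genes overlapped in all 5.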
